A study of Homo sapiens with 19 samples.

Results

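HNF4A, FOXA1, FOXA2, FOXA3, CEBPA, ONECUT1, NR5A2 and PROX1, 8 transcription factors that define hepatocytes, were followed through 19 mRNA-seq libraries of HepG2, an established line of human liver cancer cells. They were taken by symbol, with earlier results of these data known, and are 8 of the 34825 gene symbols in the deposited tables. In the INO80 experiment, cells received 50 nM of siRNA and were harvested 72 h later, with 3 libraries for the control siRNA NTG and 3 for each of the siRNAs siINO80#1 and siINO80#2, which target INO80. In the drug experiment, cells received DMSO or 1 μM EPZ-6438, an inhibitor of the histone methyltransferase EZH2, and 3 days later either NTG or siMCRS1, which targets MCRS1, at the same siRNA dose and harvest time. This gave 2 libraries of DMSO NTG, 3 of DMSO siMCRS1, 3 of EPZ-6438 NTG and 2 of EPZ-6438 siMCRS1. INO80 is the ATPase of the INO80 chromatin remodeling complex, MCRS1 is one of its accessory subunits, and EZH2 deposits methylation on lysine 27 of histone H3, a mark of silenced chromatin. All groups are 1 tumor line, NTG libraries carry transfected siRNA too, and nothing in the sources says that replicates were separate cultures, so p-values measure the spread between these libraries, which may be technical.

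Hepatocyte identity rests on a small network of factors that bind one another's promoters and enhancers. HNF4A is a nuclear receptor that sustains most liver genes, FOXA1, FOXA2 and FOXA3 are forkhead factors that can bind their sites in closed chromatin, and CEBPA is a basic leucine zipper factor of metabolic genes. ONECUT1, also called HNF6, is a cut-homeodomain factor of liver and biliary development. NR5A2, or LRH-1, is a nuclear receptor of bile acid and cholesterol genes, and PROX1 is a homeodomain factor of early hepatoblasts that can bind HNF4A and NR5A2 and repress with them.

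The targeted genes were lower in every library labelled with their siRNA. INO80 had 1175 to 1338 normalized counts (reads divided by 1 size factor per library) with NTG, 576 to 639 with siINO80#1 and 440 to 483 with siINO80#2, and MCRS1 had 1201 to 1577 with NTG and 83.7 to 140 with siMCRS1 over both treatments. INO80 itself was lower with siMCRS1, with log2 fold changes of -0.27 in DMSO (adjusted p = 0.039) and -0.35 in EPZ-6438 (adjusted p = 0.0097). Library totals ranged from 17093574 to 25369547 reads with the INO80 siRNAs and their control and from 26038505 to 47397233 with the drug, so 3 reads, taken as the floor, were worth at most 3.58 and 4.30 normalized counts, for counting error only. Library siINO80#2 C stood apart from its replicates, with a chi-square per degree of freedom of 84.3 and 121 against 18.7 between A and B. Calls of the 8 factors that changed without it are given below. Results for the other gene lists include it and were not given without it. In the drug experiment EPZ-6438 NTG 1 was at 71.3 and 44.5 against its replicates, which were at 30.2 to each other. Pairs within the other drug groups were at 21.3 to 43.9. All 8 hepatocyte markers listed were measured above a mean of 10 in both experiments. Markers of other cell types were measured too. A mean of at least 10 was reached by 2 of 4 leukocyte and 4 of 6 stellate cell markers in both experiments. Of 4 endothelial markers, 1 reached it in the INO80 and 2 in the drug experiment. The leukocyte sum was 701 to 1404 and 602 to 1633, and the endothelial sum 211 to 349 and 183 to 283. CD3E in the INO80 experiment and CFTR in the drug experiment were at 0 in every library. The summed level of the 6 cholangiocyte markers (KRT19, SPP1, SOX9, EPCAM, KRT7 and CFTR, of which the last 2 mark mature bile duct) was 24596 to 28840 in NTG, 26495 to 28374 with siINO80#1 and 35274 to 41459 with siINO80#2. It was 40277 to 44973 in DMSO NTG, 63682 to 80277 in DMSO siMCRS1, 37832 to 47727 in EPZ-6438 NTG and 55114 to 60126 in EPZ-6438 siMCRS1, with KRT19 and SPP1 giving most of it and KRT7 never above 24.8. The sum hides members that moved apart. KRT19 was at 162% and 267% of NTG with siINO80#1 and siINO80#2, while SPP1 was at 52.3% and 62.4%. With siMCRS1 in DMSO, KRT19 was at 196%, SPP1 at 180% and EPCAM at 75.8% of the control. The part of these genes in the results was not tested. In bulk RNA, fewer cells of a type and less RNA per cell cannot be told apart.

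The genes are spread over 5 chromosomes of GRCh38 in the RefSeq annotation. HNF4A lies at chr20:44355699-44434596 and FOXA2 at chr20:22580998-22585490, CEBPA at chr19:33299934-33302534 and FOXA3 at chr19:45864326-45873797, and NR5A2 at chr1:200027710-200177415 and PROX1 at chr1:213983151-214041510. FOXA1 lies at chr14:37589552-37595249 and ONECUT1 at chr15:52755053-52790336. Values were summed over each whole gene, so they do not tell transcripts of different promoters apart. The RefSeq promoter table (GRCh38.p14) held 8 windows for 6 of the factors and none for FOXA2 or PROX1. The 250 bases before the start of each window were searched on both strands, and 3 windows held a core word. The words were those of FOXA, HNF4, ONECUT, NR5A, C/EBP and HNF1 factors. HNF1 factors are not among the genes followed, and no word for PROX1 was searched. These 3 belong to HNF4A and NR5A2, the factors that were lower with every siRNA below, and are shown because they hold a word. The share of all windows that hold any of the words was not computed, so the count of 3 has no background. Any link between the words and the changes was not tested. HNF4A has an upstream window, called P2, and a downstream one, called P1, which is the main promoter in adult liver. Capitals mark words found, read on either strand: ATCAAT for ONECUT factors, GTTAAT for HNF1 factors, TGTTTAC for FOXA factors and CAAAGTCC for HNF4 factors, none overlapping another.
HNF4A P1 (chr20:44400989-44401238, plus strand): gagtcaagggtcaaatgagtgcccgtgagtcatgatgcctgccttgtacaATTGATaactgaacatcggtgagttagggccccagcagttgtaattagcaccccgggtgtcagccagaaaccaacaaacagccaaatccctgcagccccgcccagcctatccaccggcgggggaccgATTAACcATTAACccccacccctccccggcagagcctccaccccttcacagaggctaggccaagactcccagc
HNF4A P2 (chr20:44355449-44355698, plus strand): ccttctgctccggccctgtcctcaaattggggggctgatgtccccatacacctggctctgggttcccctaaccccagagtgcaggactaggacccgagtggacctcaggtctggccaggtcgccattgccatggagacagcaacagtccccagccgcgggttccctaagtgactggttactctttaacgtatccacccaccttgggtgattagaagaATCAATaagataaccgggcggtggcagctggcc
NR5A2 internal start (chr1:200042341-200042590, plus strand): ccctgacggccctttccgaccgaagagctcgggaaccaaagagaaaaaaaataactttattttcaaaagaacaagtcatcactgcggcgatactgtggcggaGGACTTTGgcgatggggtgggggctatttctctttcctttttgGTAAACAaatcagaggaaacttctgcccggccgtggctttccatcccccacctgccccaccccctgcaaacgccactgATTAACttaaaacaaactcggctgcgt

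Both HNF4A windows held the ONECUT word, which is in 5.58% of the 35116 windows of the table, 200 bases before the start in P1 and 33 bases before it in P2. P1 held the HNF1 word (6.23% of windows) a pair of times, 73 and 66 bases before the start. The NR5A2 window held the HNF4 word (1.02% of windows) 148 bases, the FOXA word (2.98%) 105 bases and the HNF1 word 27 bases before the start. The word AAGGTCA for NR5A receptors (3.44% of windows) and TTGCNNAA for C/EBP factors (9.05%) were in no member window. The CEBPA and ONECUT1 windows were rich in CpG, with 41 and 37 CpG and a GC content of 81.2% and 76.8%, against 8 CpG in each HNF4A window and none in the upstream NR5A2 window, whose GC content was 36.0%. A match is a description of the letters and says nothing of binding.

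Per length of transcript, HNF4A was the most abundant of the factors with the control siRNA and ONECUT1 the least. In NTG the levels in normalized counts per kb were 1210 ± 60.4 for HNF4A, 661 ± 132 for CEBPA, 450 ± 17.7 for FOXA1, 278 ± 22.3 for PROX1, 259 ± 30.5 for FOXA3, 252 ± 26.8 for FOXA2, 26.6 ± 8.2 for NR5A2 and 15.2 ± 2.2 for ONECUT1 (SD, n = 3). The libraries of PROX1, FOXA3 and FOXA2 overlapped in range, so these neighbors cannot be ordered. DMSO NTG gave the same order of means. In EPZ-6438 NTG, FOXA2 at 397 ± 70.6 stood above FOXA3 at 343 ± 71.8 (SD, n = 3), with ranges that overlapped.

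**Figure D1:**
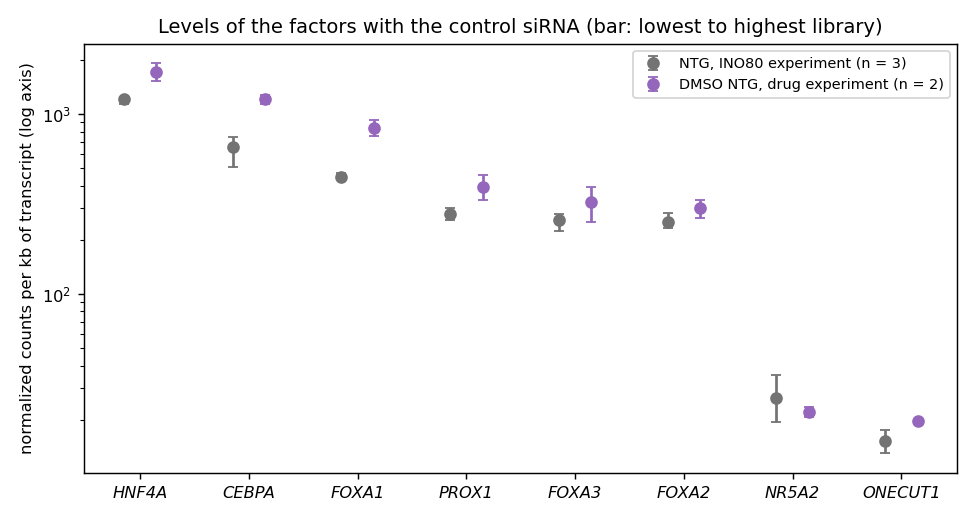
Normalized counts per kb of transcript (log axis) of the 8 factors with the control siRNA, as the mean of the libraries, with bars from the lowest to the highest library. NR5A2 and ONECUT1, at 26.6 and 15.2 in NTG, sit below the other 6 factors, which are all above 250 on average.

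Whether the factors depend on INO80 was asked by comparing each siRNA with NTG. With siINO80#1, NR5A2 and HNF4A fell and PROX1 and FOXA1 rose, and with siINO80#2, CEBPA, ONECUT1, HNF4A, NR5A2 and FOXA3 fell and PROX1 rose. For siINO80#1, 2 of 8 factors were higher where 20.7% of all 14034 genes tested were, and 2 of 8 were lower where 20.8% were, which is close to the background. For siINO80#2, 5 of 8 were lower beside 28.4% of all genes, and 1 of 8 was higher beside 26.6%. Calls are limma adjusted p-values under 0.05 on log2(normalized count + 1), a scale on which fold changes of low genes are understated.

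HNF4A fell in a graded way over the groups. Its normalized counts were 5737, 5299 and 5822 in NTG (libraries A, B and C), 4326, 3745 and 4329 with siINO80#1, and 2701, 2799 and 2777 with siINO80#2. No library of one group overlapped another group, and the means were 73.6% and 49.1% of the NTG mean. The log2 fold changes were -0.45 (SE 0.07, adjusted p = 0.00082) for siINO80#1 and -1.02 (SE 0.07, adjusted p = 1.9e-06) for siINO80#2, and the difference between the siRNAs was -0.58 (SE 0.07, adjusted p = 0.00064).

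NR5A2 fell with both siRNAs, and its mean was lower with siINO80#1, the reverse of the order for HNF4A. NR5A2 had 123, 96.5 and 177 normalized counts in NTG, 39.3, 37.7 and 58.6 with siINO80#1, and 58.3, 64.3 and 74.6 with siINO80#2. All 6 libraries with an INO80 siRNA lay under the lowest NTG library, while those of the 2 siRNAs overlapped narrowly. The log2 fold changes were -1.51 (SE 0.24, adjusted p = 0.00065) and -0.96 (SE 0.24, adjusted p = 0.0066), and the difference between the siRNAs, 0.55 with an interval of 0.01 to 1.09, did not pass (adjusted p = 0.13).

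CEBPA fell with siINO80#2 and did not pass with siINO80#1. CEBPA had 1324, 1942 and 1893 normalized counts in NTG, 1127, 1644 and 1634 with siINO80#1, and 331, 810 and 370 with siINO80#2. The siINO80#2 libraries lay below all others, while NTG and siINO80#1 overlapped, and library A was the lowest of its group in all 3 groups. The log2 fold change was -0.23 (95% interval -0.89 to 0.43, adjusted p = 0.58) for siINO80#1 and -1.87 (SE 0.30, adjusted p = 0.00036) for siINO80#2. The siRNAs differed by -1.64 (SE 0.30, adjusted p = 0.0038).

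ONECUT1, the factor of lowest level, had 65.8, 56.5 and 75.8 normalized counts in NTG, 45.3, 37.7 and 54.2 with siINO80#1, and 12.3, 26.8 and 34 with siINO80#2. The 3 groups did not overlap, in the order NTG, siINO80#1, siINO80#2. The log2 fold change was -1.50 for siINO80#2 (SE 0.33, adjusted p = 0.0026). For siINO80#1 ONECUT1 was at -0.53 (95% interval -1.25 to 0.20, adjusted p = 0.23), and the difference between the siRNAs, -0.98, just missed the threshold (adjusted p = 0.055), which it passed without siINO80#2 C (-1.26, adjusted p = 0.018).

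The 3 forkhead factors did not move as a group. FOXA1 had 1528, 1648 and 1558 normalized counts in NTG, 2019, 2380 and 2350 with siINO80#1, and 1172, 1486 and 1754 with siINO80#2. It rose with siINO80#1, by 0.51 on the log2 scale (SE 0.13, adjusted p = 0.0088), and was at -0.12 with siINO80#2 (95% interval -0.40 to 0.16, adjusted p = 0.45), so the siRNAs differed by -0.63 (SE 0.13, adjusted p = 0.0066). FOXA3 had 533, 430 and 530 normalized counts in NTG, 653, 492 and 630 with siINO80#1, and 363, 420 and 365 with siINO80#2. Its siINO80#2 libraries lay just below the lowest NTG library. FOXA3 fell with siINO80#2 by 0.37 on the log2 scale (SE 0.13, adjusted p = 0.03) and was at 0.24 with siINO80#1 (adjusted p = 0.16), with a difference between siRNAs of -0.62 (SE 0.13, adjusted p = 0.0073). The fall did not pass without NTG A (-0.32, adjusted p = 0.10), NTG C (-0.33, adjusted p = 0.099), siINO80#2 A (-0.34, adjusted p = 0.085) or siINO80#2 C (-0.34, adjusted p = 0.066), or with quantile normalization (-0.29, adjusted p = 0.064), and the value for siINO80#1 passed without siINO80#1 B (0.37, adjusted p = 0.041). FOXA2 had 610, 591 and 717 normalized counts in NTG, 609, 742 and 819 with siINO80#1 and 547, 731 and 816 with siINO80#2. All 3 groups overlapped, and its fold changes of 0.17 (95% interval -0.17 to 0.51) and 0.11 (-0.23 to 0.45) did not pass.

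PROX1 was the factor that rose with both INO80 siRNAs. PROX1 had 2554, 2181 and 2319 normalized counts in NTG, 3726, 3458 and 3907 with siINO80#1, and 3397, 3432 and 4749 with siINO80#2. All 6 libraries with an INO80 siRNA lay over the highest NTG library, and the siRNA groups overlapped. The log2 fold changes were 0.65 (SE 0.12, adjusted p = 0.0016) and 0.70 (SE 0.12, adjusted p = 0.00066), and the siRNAs differed by 0.05 (95% interval -0.23 to 0.32). Without siINO80#2 C, the highest library, PROX1 was at 0.54 with siINO80#2 (adjusted p = 0.00023). With that library left out, HNF4A, CEBPA, ONECUT1 and NR5A2 also passed with siINO80#2, at -1.03, -1.71, -1.79 and -1.05.

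**Figure D2:**
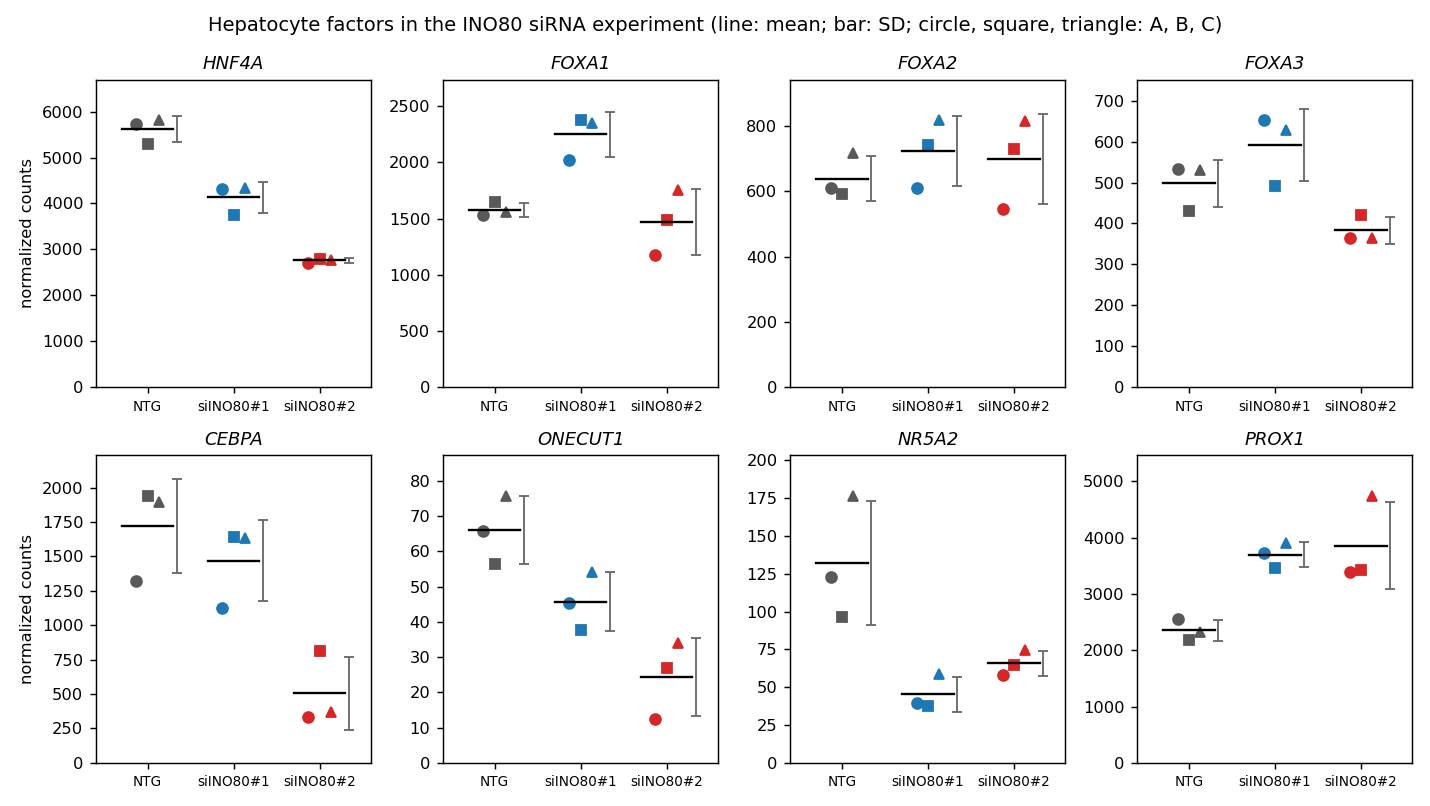
Normalized counts (linear axes from 0) of each factor in the 9 libraries of the INO80 experiment, with the mean as a line and the SD (n = 3) as a bar. HNF4A steps from a mean of 5619 to 4133 and 2759, CEBPA drops with siINO80#2, NR5A2 is lower and PROX1 higher with both siRNAs, and FOXA2 overlaps in all groups.

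Directly against siINO80#1, siINO80#2 left 4 of 8 factors lower (HNF4A, FOXA1, FOXA3 and CEBPA), beside 12.6% of all genes, and 0 of 8 higher by limma or edgeR, beside 9.48% of all genes, although NR5A2 had an unadjusted p under 0.05 in that direction. INO80 itself differed between the siRNAs by -0.40 (adjusted p = 0.0058). The deposited scaling puts the median of all genes at 0.00 for both siRNAs. Scaling each library to an equal total instead moved this median to -0.08 for siINO80#1 and to -0.11 for siINO80#2, and the share of calls that were higher from 49.9% to 39.8% and from 48.3% to 38.7%. The member calls against NTG were the same under that scaling, where PROX1 remained at 0.59 with siINO80#2 (adjusted p = 0.00058), 0.70 above the median of all genes.

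In the drug experiment siMCRS1 lowered the mRNA of MCRS1, a second subunit of the complex, and its protein was not measured here. Whether changes with siMCRS1 come about through the INO80 complex was not tested. In DMSO, HNF4A, CEBPA, ONECUT1 and NR5A2 fell and FOXA2 rose with siMCRS1, and in EPZ-6438 the same 4 factors fell and PROX1 rose. Of the 8 factors, 4 were lower in DMSO beside 24.6% of all 14312 genes tested, and 4 in EPZ-6438 beside 26.9%. In each treatment 1 of 8 was higher, beside 23.1% and 26.8% of all genes. HNF4A, NR5A2, CEBPA and ONECUT1 are 4 of the 5 factors lower with siINO80#2, in libraries that share no control with these. The other, FOXA3, did not pass with siMCRS1. With siINO80#2, 28.4% of all genes were lower, and the share of those also lower with siMCRS1 was not computed.

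HNF4A had 8900 and 7134 normalized counts in DMSO NTG, 6378, 5398 and 4645 in DMSO siMCRS1, 7487, 9709 and 8267 in EPZ-6438 NTG, and 6367 and 5232 in EPZ-6438 siMCRS1. All 5 siMCRS1 libraries were below all 5 NTG libraries. The log2 fold change was -0.55 in DMSO (SE 0.16, adjusted p = 0.016) and -0.55 in EPZ-6438 (SE 0.16, adjusted p = 0.015), and the difference between treatments was 0.01 (95% interval -0.50 to 0.51). The DMSO value did not pass without DMSO NTG 1 (-0.39, adjusted p = 0.16) or DMSO siMCRS1 3 (-0.44, adjusted p = 0.055), nor the EPZ-6438 value without EPZ-6438 NTG 2 (-0.45) or EPZ-6438 siMCRS1 B (-0.41, adjusted p = 0.15).

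CEBPA had 3337 and 2953 normalized counts in DMSO NTG, 2473, 1658 and 1990 in DMSO siMCRS1, 3733, 3666 and 3984 in EPZ-6438 NTG, and 2374 and 1769 in EPZ-6438 siMCRS1. Here too no siMCRS1 library reached the lowest NTG library. Its log2 fold change was -0.64 in DMSO (SE 0.17, adjusted p = 0.009) and -0.89 in EPZ-6438 (SE 0.17, adjusted p = 0.0012). Without DMSO NTG 1 the CEBPA value in DMSO was -0.55 and did not pass (adjusted p = 0.078).

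NR5A2 had 102 and 116 normalized counts in DMSO NTG, 62.3, 71.6 and 58.7 in DMSO siMCRS1, 315, 301 and 268 in EPZ-6438 NTG, and 166 and 106 in EPZ-6438 siMCRS1. It was lower with siMCRS1 in both treatments and higher with EPZ-6438 with both siRNAs, and of the EPZ-6438 siMCRS1 libraries 1 lay within and 1 above the range of DMSO NTG. The log2 fold change for siMCRS1 was -0.76 in DMSO (SE 0.21, adjusted p = 0.013) and -1.14 in EPZ-6438 (SE 0.21, adjusted p = 0.0011), a difference of -0.38 with an interval of -1.04 to 0.28. The DMSO value did not pass without DMSO NTG 3 (-0.67, adjusted p = 0.086) or with quantile normalization (-0.44, adjusted p = 0.091).

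ONECUT1 had 86.2 and 84.9 normalized counts in DMSO NTG, 56.8, 44.1 and 37.2 in DMSO siMCRS1, 103, 151 and 160 in EPZ-6438 NTG, and 100 and 51.5 in EPZ-6438 siMCRS1. Within each treatment the siMCRS1 libraries were lower, although library A of EPZ-6438 siMCRS1 was close to the lowest EPZ-6438 NTG library. The log2 fold change was -0.90 in DMSO (SE 0.31, adjusted p = 0.034) and -0.91 in EPZ-6438 (SE 0.31, adjusted p = 0.03). These are the least firm of the falls. The DMSO value did not pass without DMSO NTG 1 (-0.89, adjusted p = 0.13), DMSO NTG 3 (-0.91, adjusted p = 0.11), DMSO siMCRS1 2 (-0.88, adjusted p = 0.078) or DMSO siMCRS1 3 (-0.76, adjusted p = 0.096), and the EPZ-6438 value without EPZ-6438 NTG 2 (-0.83, adjusted p = 0.077), EPZ-6438 NTG 3 (-0.79, adjusted p = 0.088) or EPZ-6438 siMCRS1 B (-0.44, adjusted p = 0.33). Neither passed with no filter on low genes (adjusted p = 0.066 and 0.058) or with quantile normalization (-0.60 and -0.48).

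PROX1 and FOXA2 moved the other way. PROX1 had 2810 and 3885 normalized counts in DMSO NTG, 4151, 4243 and 5811 in DMSO siMCRS1, 2478, 3751 and 4080 in EPZ-6438 NTG, and 4738 and 5381 in EPZ-6438 siMCRS1, so the siMCRS1 libraries were above every NTG library. Its log2 fold change was 0.50 in DMSO, which did not pass (SE 0.22, adjusted p = 0.087), and 0.59 in EPZ-6438, which did (SE 0.22, adjusted p = 0.045). The EPZ-6438 call is fragile, since it did not pass without DMSO siMCRS1 2 (0.59, adjusted p = 0.057), EPZ-6438 NTG 1 (0.37, adjusted p = 0.13) or either EPZ-6438 siMCRS1 library (0.68 and 0.50), by edgeR (0.53, adjusted p = 0.066), without the trend (adjusted p = 0.084) or with no filter (adjusted p = 0.074), and PROX1 in DMSO passed without EPZ-6438 NTG 1 (adjusted p = 0.036). FOXA2 had 851 and 676 normalized counts in DMSO NTG, 1110, 1198 and 951 in DMSO siMCRS1, 886, 1214 and 926 in EPZ-6438 NTG, and 1254 and 1350 in EPZ-6438 siMCRS1. It rose by 0.51 on the log2 scale in DMSO (SE 0.16, adjusted p = 0.024) and was at 0.38 in EPZ-6438 (SE 0.16, adjusted p = 0.07). FOXA2 in DMSO did not pass without DMSO NTG 3 (0.35, adjusted p = 0.20), DMSO siMCRS1 1 (0.49, adjusted p = 0.051) or DMSO siMCRS1 2 (0.44, adjusted p = 0.082), and FOXA2 in EPZ-6438 passed without EPZ-6438 NTG 2 (0.52, adjusted p = 0.016).

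These rises also depend on the scaling. With equal totals the median of all genes was -0.23 in both treatments, and the share of calls that were higher went from 48.4% to 27.0% in DMSO and from 49.9% to 30.1% in EPZ-6438. Under it FOXA2 in DMSO was at 0.28 (adjusted p = 0.12) and PROX1 in EPZ-6438 at 0.35 (adjusted p = 0.23), which are 0.51 and 0.58 above the median of all genes, and with quantile normalization PROX1 in EPZ-6438 was at 0.34 (adjusted p = 0.26). The falls of HNF4A, CEBPA, ONECUT1 and NR5A2 passed under equal totals in both treatments. That scaling lowers the siMCRS1 libraries as a whole, so it could hardly weaken a fall. With quantile normalization, ONECUT1 passed in neither treatment (adjusted p = 0.12 and 0.2), and NR5A2 did not pass in DMSO (adjusted p = 0.091).

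FOXA1 and FOXA3 did not pass with siMCRS1. FOXA1 had 3242 and 2639 normalized counts in DMSO NTG and 3261, 2533 and 3021 in DMSO siMCRS1, and 2384, 2862 and 2080 against 2130 and 2326 in EPZ-6438. Its fold changes of 0.00 (95% interval -0.34 to 0.34) and -0.12 (-0.46 to 0.22) bound a change of either sign. FOXA3 had 757 and 486 normalized counts in DMSO NTG, 691, 586 and 427 in DMSO siMCRS1, 692, 779 and 509 in EPZ-6438 NTG, and 569 and 470 in EPZ-6438 siMCRS1. Its values of -0.12 and -0.33 had intervals of -0.68 to 0.43 and -0.88 to 0.23, wide enough to hold the fall seen with siINO80#2.

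**Figure D3:**
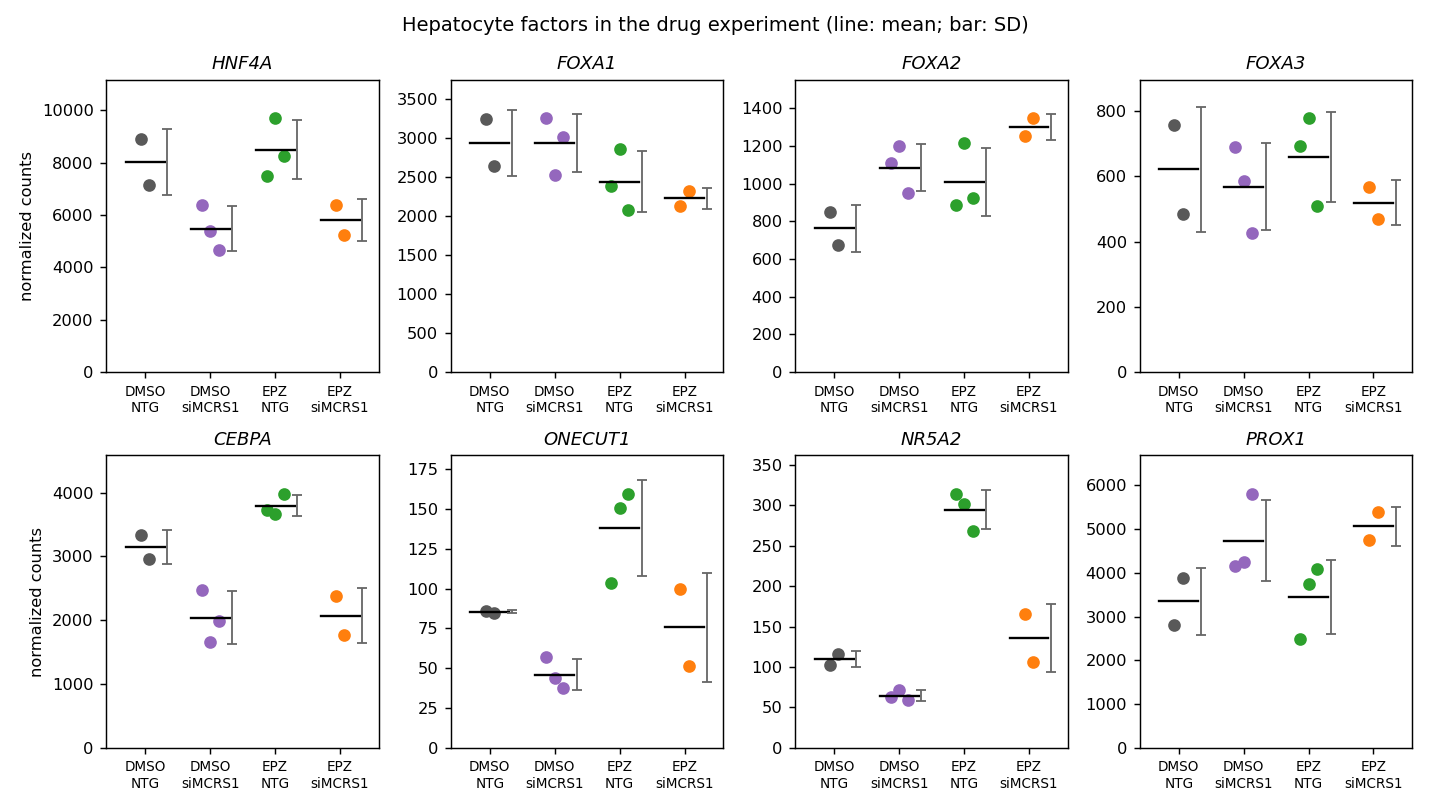
Normalized counts (linear axes from 0) of each factor in the 10 libraries of the drug experiment (EPZ stands for EPZ-6438), with the mean as a line and the SD (n = 2 or 3) as a bar. NR5A2 averages 109 in DMSO NTG, 64.2 in DMSO siMCRS1, 295 in EPZ-6438 NTG and 136 in EPZ-6438 siMCRS1, and HNF4A and CEBPA are lower in both siMCRS1 groups.

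The response of the factors to inhibition of EZH2 was read from EPZ-6438 against DMSO. NR5A2 was the one factor past the threshold, and it rose in NTG cells by 1.42 on the log2 scale (SE 0.21, adjusted p = 0.03), with its 3 EPZ-6438 libraries at 268 to 315 normalized counts against 102 and 116 in DMSO. That is 1 of 8 factors, where 0.321% of all genes were higher and 0.0629% lower. The NR5A2 call did not survive the loss of any library of the 2 groups, with adjusted p = 0.24 without DMSO NTG 1, 0.15 without DMSO NTG 3, 0.055 without EPZ-6438 NTG 1 or 2 and 0.13 without EPZ-6438 NTG 3, or the lack of a filter on low genes (adjusted p = 0.051), while the fold change stayed between 1.33 and 1.51. In siMCRS1 cells NR5A2 was at 1.04 (SE 0.21, adjusted p = 0.12), with every EPZ-6438 library above every DMSO library. There 0 of 8 factors passed by limma or edgeR, where 0.0838% of all genes were higher and 0.00699% lower. An unadjusted limma p under 0.05 was held by 2 factors (NR5A2 and FOXA1), beside 1305 of all 14312 genes. ONECUT1 leaned the same way, at 0.66 in NTG cells (95% interval -0.03 to 1.35) and 0.65 in siMCRS1 cells (-0.04 to 1.34), neither of which passed. FOXA2 was at 0.40 and 0.27, CEBPA at 0.27 and 0.03, FOXA1 at -0.27 and -0.39, and HNF4A, FOXA3 and PROX1 between -0.11 and 0.11, none past the threshold. The summed level of the 6 stellate cell markers listed was 1914 to 3114 in EPZ-6438 NTG against 990 to 1502 in DMSO NTG, most of it ACTA2, while DES and DCN stayed under 10 normalized counts in those libraries, and its part in the NR5A2 result was not tested.

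The interaction of siMCRS1 with EPZ-6438, which asks whether the drug changes the effect of the siRNA, was called for 0 of 14312 genes by limma or edgeR, with 336 at an unadjusted p under 0.05, or 0% in either direction. None of the 8 factors had an unadjusted p under 0.05 by limma. Their estimates ran from -0.38 for NR5A2 to 0.09 for PROX1, with intervals as wide as -0.98 to 0.97 for ONECUT1, an interval that holds differences as large as the siMCRS1 effect on that gene.

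**Figure D4:**
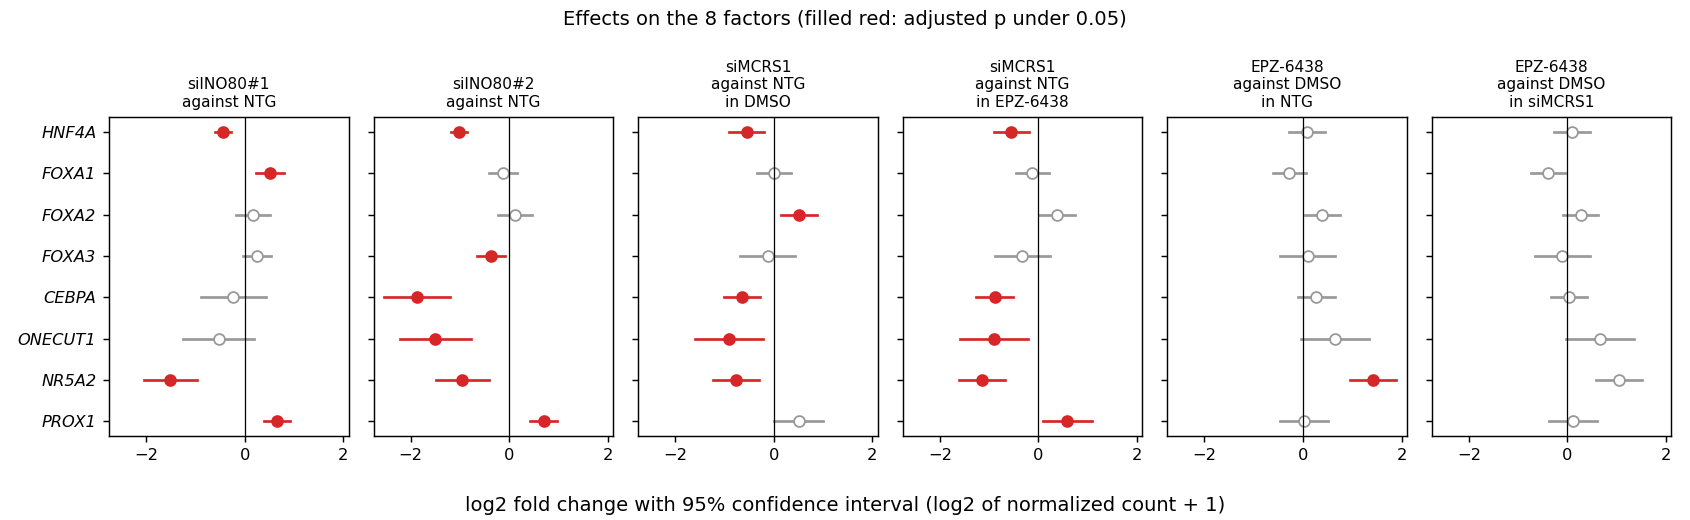
Log2 fold changes of the 8 factors with 95% confidence intervals (horizontal lines) in 6 comparisons, filled red where the adjusted p was under 0.05. HNF4A and NR5A2 lie left of 0 in all 4 siRNA panels, CEBPA is lowest with siINO80#2 at -1.87, and NR5A2 lies right of 0 in both EPZ-6438 panels at 1.42 and 1.04.

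Over the 4 comparisons of an siRNA with NTG, HNF4A and NR5A2 were past the threshold and lower in 4 of 4, CEBPA and ONECUT1 in 3 of 4, and PROX1 was past it and higher in 3 of 4. FOXA1 and FOXA2 were each called in 1 comparison, as higher, and FOXA3 in 1, as lower. The comparisons within an experiment share NTG libraries (siINO80) or are fitted together (siMCRS1), so these counts are not independent of each other. In single comparisons 20.8% to 28.4% of all genes were lower and 20.7% to 26.8% higher. The share of all genes called as often over the 4 was not computed, so these counts have no background.

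In a wider list of hepatocyte transcription factors, more fell than rose. The list was chosen with earlier results of these data known, so its counts and medians are descriptions and not a test. Of 28 other factors tested, 9 were lower and 4 higher with siINO80#1 (median log2 fold change -0.13 beside 0.00 for all genes), and 17 were lower and 2 higher with siINO80#2 (median -0.58). With siMCRS1, 13 were lower and 6 higher in DMSO (median -0.39) and 12 were lower and 6 higher in EPZ-6438 (median -0.26). Of all genes, 20.8% were lower and 20.7% higher with siINO80#1, 28.4% and 26.6% with siINO80#2, and, with siMCRS1, 24.6% and 23.1% in DMSO and 26.9% and 26.8% in EPZ-6438. The count of higher factors was well below this share with siINO80#2. With siINO80#1 and with siMCRS1 it was nearer to the share, most of all in DMSO. The largest falls with siINO80#2 were NR1H4, the bile acid receptor, at -3.16 (SE 0.16), KLF15, a factor of gluconeogenesis and amino acid breakdown, at -2.11 (SE 0.26), and MLXIPL, the carbohydrate response factor ChREBP, at -1.61 (SE 0.14). NR1H4 and KLF15 were also the largest falls with siINO80#1, at -1.93 and -1.59, followed by NR1I3, the xenobiotic receptor CAR, at -1.57. With siMCRS1 in DMSO the largest were MLXIPL at -2.52, CREB3L3, a membrane-bound factor of lipid metabolism, at -2.26, and KLF15 at -1.96, and in EPZ-6438 MLXIPL at -2.86, NR1I3 at -2.51 and KLF15 at -2.35. The largest rises with siINO80#1 were NR2F1, an orphan receptor also called COUP-TFI, at 0.83, TBX3, a factor of hepatoblasts, at 0.65, and HLF, a PAR bZIP factor, at 0.55. GATA6, an endoderm factor, was the largest rise with siMCRS1, at 1.05 in DMSO and 1.19 in EPZ-6438, while its relative GATA4 fell, by 0.71 and 0.95 on the log2 scale. Like FOXA1 and FOXA3, HLF differed between the INO80 siRNAs, by -1.01 (SE 0.09, adjusted p = 0.00012), being higher with siINO80#1 and lower with siINO80#2 (-0.46, adjusted p = 0.0017).

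Of 8 paralogs tested in the INO80 experiment, 5 fell with siINO80#2 (ONECUT2, CEBPB, CEBPD, CEBPG and NR5A1) and 0 passed with siINO80#1 by limma or edgeR, with 0 at an unadjusted p under 0.05, beside 28.4% of all genes lower with siINO80#2 and 20.8% lower and 20.7% higher with siINO80#1. ONECUT2, the paralog of ONECUT1, was at -0.43 with siINO80#2 (adjusted p = 0.011), and CEBPD and CEBPB at -1.25 and -1.07. NR5A1, the steroidogenic relative of NR5A2, fell with siINO80#2 (-0.67, adjusted p = 0.001) and with siMCRS1 in DMSO (-0.77, adjusted p = 0.0019) and EPZ-6438 (-0.88, adjusted p = 0.00066). Of 7 paralogs tested in the drug experiment, 2 were higher and 1 lower with siMCRS1 in DMSO, and 1 was higher and 1 lower in EPZ-6438. Of all genes, 23.1% were higher and 24.6% lower in DMSO, and 26.8% and 26.9% in EPZ-6438. CEBPG rose with siMCRS1 in both treatments, at 0.31 and 0.46, the reverse of its direction with siINO80#2 (-0.37). HNF4G, the second HNF4 gene, did not pass in any of these comparisons, with values from -0.12 to 0.35. ONECUT2, CEBPB, CEBPD and CEBPG are also among the 28 factors above. The list of paralogs too was chosen with earlier results of these data known.

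Genes listed as textbook targets of the factors were lower on balance, but unevenly. This list too was chosen with earlier results of these data known, so its counts and medians are descriptions. Of 26 tested in the INO80 experiment, 11 were lower and 2 higher with siINO80#1 (median -0.28), and 15 were lower and 2 higher with siINO80#2 (median -0.82). Of 28 tested in the drug experiment, 11 were lower and 2 higher with siMCRS1 in DMSO (median -0.37), and 13 were lower and 3 higher in EPZ-6438 (median -0.65). The shares of all genes that were lower in these comparisons were 20.8%, 28.4%, 24.6% and 26.9%. OTC, an enzyme of the urea cycle, had 56.5 to 76.8 normalized counts in NTG, 0 to 0.87 with siINO80#1 and 0.94 to 2.2 with siINO80#2, which is under the floor in every siINO80 library, so no fold is given, and 96.7 and 98.3 in DMSO NTG against 0 to 3.34 in DMSO siMCRS1. PCK1, which commits carbon to glucose synthesis, fell in all 4 comparisons, with log2 fold changes of -3.91 (SE 0.53) for siINO80#1 and -3.70 (SE 0.53) for siINO80#2, and with siMCRS1 of -3.83 (SE 0.45) in DMSO and -4.25 (SE 0.45) in EPZ-6438. G6PC, the enzyme of the last step of glucose release, was at -2.43 with siINO80#1 and, with siMCRS1, at -2.65 in DMSO and -4.22 in EPZ-6438, and APOC3, an apolipoprotein of triglyceride-rich particles, at -3.41 with siINO80#2. CPS1, the first enzyme of the urea cycle, rose in all 4, at 0.58, 0.70, 0.40 and 0.62. IGFBP1, a binding protein that tempers insulin-like growth factors, rose with siMCRS1, at 1.52 and 2.37. Its mean was at 82.1% and 37.5% of NTG with siINO80#1 and siINO80#2. ALB, the most familiar product of hepatocytes, fell with siINO80#2 (-0.57, adjusted p = 0.016) and rose with siMCRS1 in EPZ-6438 (0.57, adjusted p = 0.027). With EPZ-6438 in NTG cells, 0 of 28 targets and 0 of 28 other factors passed by limma or edgeR, beside 0.321% of all genes higher and 0.0629% lower. An unadjusted limma p under 0.05 was held by 8 and 7 of them, beside 2443 of all 14312 genes. With EPZ-6438 the targets had a median log2 fold change of 0.42 in NTG cells and 0.26 in siMCRS1 cells. The other factors were at 0.11 and 0.01, beside -0.03 and -0.02 for all genes. Whether these medians differ was not tested.

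**Figure D5:**
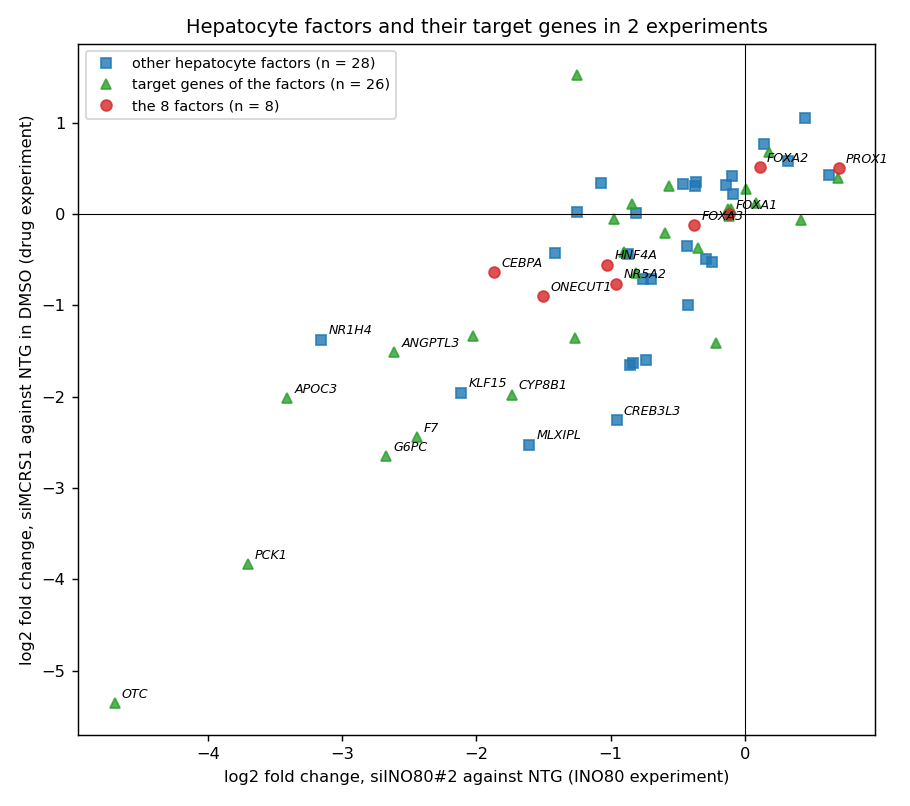
Log2 fold changes with siINO80#2 (horizontal) and with siMCRS1 in DMSO (vertical) for the 8 factors, 28 other hepatocyte factors and 26 target genes, in libraries that share no control. PCK1, G6PC, APOC3, NR1H4 and KLF15 lie at the lower left, farther from 0 than any of the 8 factors, and PROX1 lies at the upper right at 0.70 and 0.50. OTC is plotted at its fitted value and was under the floor of 3 reads with siINO80#2.

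The genes most like each factor were taken as those with the highest Pearson correlation of log2 levels in both experiments, out of 11419 or 11420 genes with a mean of at least 50. These are descriptions over 9 and 10 libraries that share their scaling and their group differences. HNF4A was closest to KIAA1161 (r = 0.973 and 0.978) and to SARDH, an enzyme of sarcosine breakdown (0.980 and 0.966). NR5A2 was closest to LIPC, the hepatic lipase (0.943 and 0.948), and FBXW8 (0.934 and 0.959), CEBPA to VWCE (0.959 and 0.971) and ARL6IP4 (0.950 and 0.978), and ONECUT1 to BACE1 (0.928 and 0.949) and KANK1 (0.923 and 0.932). PROX1 was closest to SOS1, an exchange factor for RAS (0.961 and 0.967), and BMPR2, a BMP receptor (0.945 and 0.964). The forkhead factors had lower likeness, led by TRIP10 for FOXA1 (0.854 and 0.834), EFNA2 for FOXA2 (0.880 and 0.869) and CKB for FOXA3 (0.863 and 0.918).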

How the data were processed

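HepG2 mRNA libraries (stranded Kapa kit) were analysed from 2 tables that the authors deposited, 1 per experiment, as a never-negative signal: counts scaled by 1 factor for each library, in which 100% of values were whole multiples (tolerance 1e-06) of 1 step. Per the labels, the processing involved kallisto, DESeq2 and GRCh38, with versions, annotation, use of strand and roles not given in the sources used here. Groups came from the labels. Drug-table columns were assigned to groups by name and not paired, and no test crossed tables.

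Genes with a mean of at least 10 (14034 and 14312) were tested with limma 3.58.1 in R 4.3.3 on log2(value + 1), with lmFit, eBayes with a trend, all groups of a table in 1 fit and Benjamini-Hochberg adjustment over all genes tested (threshold 0.05). The 8 members and all lists were chosen with earlier results of these data known. All members are named, with up to 3 genes per direction and comparison from each list, those with the largest change past the threshold, and further list genes (GATA4, CEBPG, ALB, HNF4G and the paralogs) chosen after their values were seen. Likeness was the lower Pearson r of the 2 experiments. Lengths were MANE transcripts of GENCODE v44. Promoter windows and coordinates were from RefSeq.

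Alternatives were other pseudocounts (0.1 and 5), a filter at a mean of 1 and no filter, equal totals, quantile normalization, no trend, only the groups compared, each library left out, the replicate letter as a block, and, added after the values were seen, edgeR 4.0.16 with TMM on the recovered reads. Both tools were tested on simulated data. The 5 noncoding neighbors listed were not analysed here. Python 3.11.15, numpy 2.4.6, pandas 2.3.3 and matplotlib 3.10.9 were used.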

Additional observations from a re-analysis of the deposited data

How the results depend on the processing

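Of 25 member effects past the threshold, 15 kept their direction and call under every alternative run, and none reversed. The number of members called moved from 1 to 0 for EPZ-6438 in NTG with no filter, and for siMCRS1 from 5 to 3 in DMSO with quantile normalization and from 5 to 3 in EPZ-6438 with no filter and with quantile normalization. The cause was not tested. With each library left out, members called ranged from 0 to 1 for EPZ-6438 in NTG, and, for siMCRS1, from 2 to 6 in DMSO and from 2 to 5 in EPZ-6438. Effects that had not passed and changed sign were FOXA3 with siMCRS1 in DMSO (0.043 with quantile normalization), and the interaction for HNF4A (-0.067 with quantile normalization, -0.012 with edgeR) and ONECUT1 (0.12 and 0.011).

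With each library left out, the log2 values that changed sign ranged as follows. For siINO80#2 against NTG, FOXA1 ranged from -0.26 to 0.034 and FOXA2 from -0.01 to 0.28. Between the INO80 siRNAs, FOXA2 ranged from -0.18 to 0.11 and PROX1 from -0.11 to 0.13. For EPZ-6438 in NTG, HNF4A ranged from -0.077 to 0.24, FOXA3 from -0.22 to 0.42 and PROX1 from -0.21 to 0.26, and in siMCRS1, HNF4A from -0.053 to 0.23, FOXA3 from -0.30 to 0.049 and CEBPA from -0.19 to 0.24. For siMCRS1 in DMSO, FOXA1 ranged from -0.15 to 0.15 and FOXA3 from -0.44 to 0.20. For the interaction, HNF4A ranged from -0.15 to 0.17, FOXA1 from -0.27 to 0.029, FOXA2 from -0.30 to 0.036, FOXA3 from -0.53 to 0.11, ONECUT1 from -0.48 to 0.47 and PROX1 from -0.15 to 0.32. None of these values had passed.

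Same-lettered libraries of the INO80 experiment deviated together only weakly (mean r 0.10, from -0.08 to 0.26, over 9 pairs, against -0.05 over 18 other pairs). The 3 pairs of NTG with siINO80#1 were all above 0.1 (0.14 to 0.26), but not all of those with siINO80#2, so a pairing by letter was not taken as given. With the letter as a replicate block, the members called were 4 for siINO80#1, 6 for siINO80#2 and 6 between the siRNAs, where ONECUT1 (-0.98, adjusted p = 0.038) and NR5A2 (0.55, adjusted p = 0.04) were added. No replicate block was run in the drug experiment, since its columns are numbered and its sample titles lettered.

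Over all genes, 55 were called for EPZ-6438 in NTG, but 20 with no filter, 85 with quantile normalization, 19 with no trend, 128 with only the groups compared and as few as 2 without DMSO NTG 3. For EPZ-6438 in siMCRS1, 13 were called, and 4, 7 and 3 with no filter, no trend and only the groups compared. The 3096 genes called between the INO80 siRNAs became 1948 without siINO80#1 A and 2042 without siINO80#1 C, and the 7686 called for siMCRS1 in EPZ-6438 became 5070 without EPZ-6438 siMCRS1 B. The interaction gave 0 to 3 genes. A group left with 1 library was assumed to vary like the others.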

Other observations

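Coregulators through which these factors act were called in both directions, in counts mostly near the shares of all genes. Of 14 tested, 4 were higher and 1 lower with siINO80#1, 4 higher and 4 lower with siINO80#2, 4 higher and 3 lower with siMCRS1 in DMSO, and 5 higher and 3 lower with siMCRS1 in EPZ-6438 (edgeR gave 3 higher with siMCRS1 in DMSO and otherwise the same counts). Of all genes, 20.7% were higher and 20.8% lower with siINO80#1, 26.6% and 28.4% with siINO80#2, 23.1% and 24.6% with siMCRS1 in DMSO, and 26.8% and 26.9% in EPZ-6438. The coregulators' median log2 fold changes were 0.16, -0.13, 0.23 and 0.24. PPARGC1A, the coactivator PGC-1alpha of HNF4A in gluconeogenesis, fell in all 4, with log2 fold changes of -0.47 (adjusted p = 0.038), -1.26 (adjusted p = 7.4e-05), -0.92 (adjusted p = 0.0061) and -0.59 (adjusted p = 0.043), while its paralog PPARGC1B rose, at 0.44, 0.56, 0.63 and 0.68. KDM1A, the histone demethylase LSD1, rose in all 4, at 0.25, 1.02, 0.55 and 0.51, and differed between the INO80 siRNAs by 0.77 (SE 0.07, adjusted p = 0.00016). TLE1, a corepressor, was lower with siINO80#2 (-0.35, adjusted p = 0.017) and higher with siMCRS1 in DMSO (0.74, adjusted p = 0.0004) and in EPZ-6438 (0.84, adjusted p = 0.00014). These lists were chosen with results of these data known.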
